A study of Triticum aestivum with 12 samples.

Results

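GW2 of bread wheat is present as 3 homoeologues, gene copies on the A, B and D versions of chromosome 6. They are TraesCS6A02G189300 (here 6A), TraesCS6B02G215300 (6B) and TraesCS6D02G176900 (6D), and they were found by identifier in the table of normalized counts, which lists 107411 genes. All 3 were present in the table, above 0 in every library and above the filter on low values without an exception being made for them. RNA came from the flag leaf of 4 modern Canadian bread wheat varieties, with 3 replicates of each and 12 libraries in all. Every library is labelled as a control, so no drought-treated plant is among them, and variety is the only factor that differs. The Western ecozone is represented by AAC Starbuck, a later release, and AAC Concord, an earlier one. The Eastern ecozone is represented by AAC Magnet, a later release, and AAC Tradition, an earlier one. The sample labels place the plants in field plots, from whose middle flag leaves were taken. A figure legend of the study instead places them in a greenhouse, with leaves taken at flowering. The labels number the replicates without saying that they came from separate plants, so the p-values below measure the spread between these samples.

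GW2 encodes a RING-type E3 ubiquitin ligase, an enzyme that attaches ubiquitin to other proteins and so marks them for breakdown. In rice, where the gene was named, loss of GW2 gives a spikelet hull with more cells and a wider grain. In Arabidopsis, the related ligase DA2 restricts seed and organ size together with the ubiquitin receptor DA1. In wheat, mutations in the GW2 homoeologues enlarge the grain, with effects that add up over the subgenomes. These traits are set in the developing spike and grain, whereas the measurements here are of the flag leaf, the last leaf below the spike and a main source of carbon for the grain.

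Each GW2 gene was expressed below the median of the genes that passed the filter, which was 46.2 normalized counts over 44026 genes. The means of 6A, 6B and 6D exceeded those of 27.6%, 37.0% and 29.1% of these genes. Normalized counts, in which the authors scaled each library to the others, sum to 5077330 to 5902642 per library. The step between low values, 0.798 to 1.24 normalized counts, stands for 1 counted unit. Sequencing was paired-end, so this unit may be a read pair, and it is called a read here. By this step, 4486129 to 7093393 reads per library were counted on genes, which is not the full sequencing depth. Every member value lay within 0.0406 of a whole number of such reads. The identifiers carry no gene descriptions, so leaf marker genes were not checked, and gene lengths and coordinates were not used here. Levels of different homoeologues are therefore compared as counts and not per length. In these bulk samples, fewer expressing cells and less RNA per cell cannot be told apart.

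The 6A homoeologue was measured at 31.3, 21.8 and 16.8 normalized counts in replicates 1, 2 and 3 of AAC Starbuck, and at 25.3, 20.6 and 28.4 in AAC Concord. In AAC Magnet it had 22.0, 11.9 and 22.2, and in AAC Tradition 12.4, 23.8 and 22.1. The lowest values, in AAC Magnet replicate 2 and AAC Tradition replicate 1, correspond to 10 reads each. The highest, in AAC Starbuck replicate 1, corresponds to 38 reads. AAC Concord had the highest mean, 24.8 ± 3.91 normalized counts, followed by AAC Starbuck with 23.3 ± 7.38, AAC Tradition with 19.4 ± 6.17 and AAC Magnet with 18.7 ± 5.88 (SD, n = 3). All 4 ranges overlapped, and neighbours in this order did not differ beyond their spread.

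The 6B homoeologue was measured at 18.9, 33.2 and 27.9 normalized counts in AAC Starbuck and at 40.3, 30.5 and 26.6 in AAC Concord. In AAC Magnet it had 21.0, 37.0 and 30.2, and in AAC Tradition 32.2, 32.8 and 26.5. Over the 12 libraries it averaged 29.8 normalized counts, against 21.6 for 6A and 22.9 for 6D. The order of its means was AAC Concord with 32.5 ± 7.07, AAC Tradition with 30.5 ± 3.44, AAC Magnet with 29.4 ± 8.06 and AAC Starbuck with 26.7 ± 7.21 (SD, n = 3). Again the ranges of all varieties overlapped.

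The 6D homoeologue was measured at 30.5, 19.7 and 18.4 normalized counts in AAC Starbuck and at 11.3, 18.2 and 26.6 in AAC Concord. In AAC Magnet it had 33.5, 17.9 and 28.5, and in AAC Tradition 34.7, 21.8 and 13.3. Over the 12 libraries its highest value was 3.08 times its lowest, against 2.62 times for 6A and 2.13 times for 6B. Replicates of AAC Tradition differed 2.61-fold and those of AAC Concord 2.36-fold, more than the means of any varieties did. Its mean was highest in AAC Magnet with 26.6 ± 7.97, then came AAC Tradition with 23.3 ± 10.8 and AAC Starbuck with 22.9 ± 6.64, and AAC Concord was lowest with 18.7 ± 7.69 (SD, n = 3).

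Summed over the homoeologues, GW2 had a smaller ratio of highest to lowest library than any of them alone. In normalized counts the SD of the sum over 12 libraries was 7.09, against 5.74 for 6A, 6.11 for 6B and 7.76 for 6D. How much of the smaller ratio follows from the larger number of reads in the sum was not tested. AAC Starbuck had 80.7, 74.7 and 63.1 normalized counts, AAC Concord 76.9, 69.3 and 81.6, AAC Magnet 76.5, 66.9 and 80.9, and AAC Tradition 79.3, 78.4 and 61.9. The lowest variety mean was 72.8 ± 8.98 (AAC Starbuck) and the highest 75.9 ± 6.22 (AAC Concord; SD, n = 3). The highest library was 1.32 times the lowest. Across the 4 varieties, the exact permutation test of the sum gave p = 0.92. The difference of AAC Concord minus AAC Starbuck was 0.064 on the scale of log2(normalized count + 1). Its sign turned, to -0.046, when libraries were scaled to an equal total, and to -0.035 without AAC Starbuck replicate 3.

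**Figure D1:**
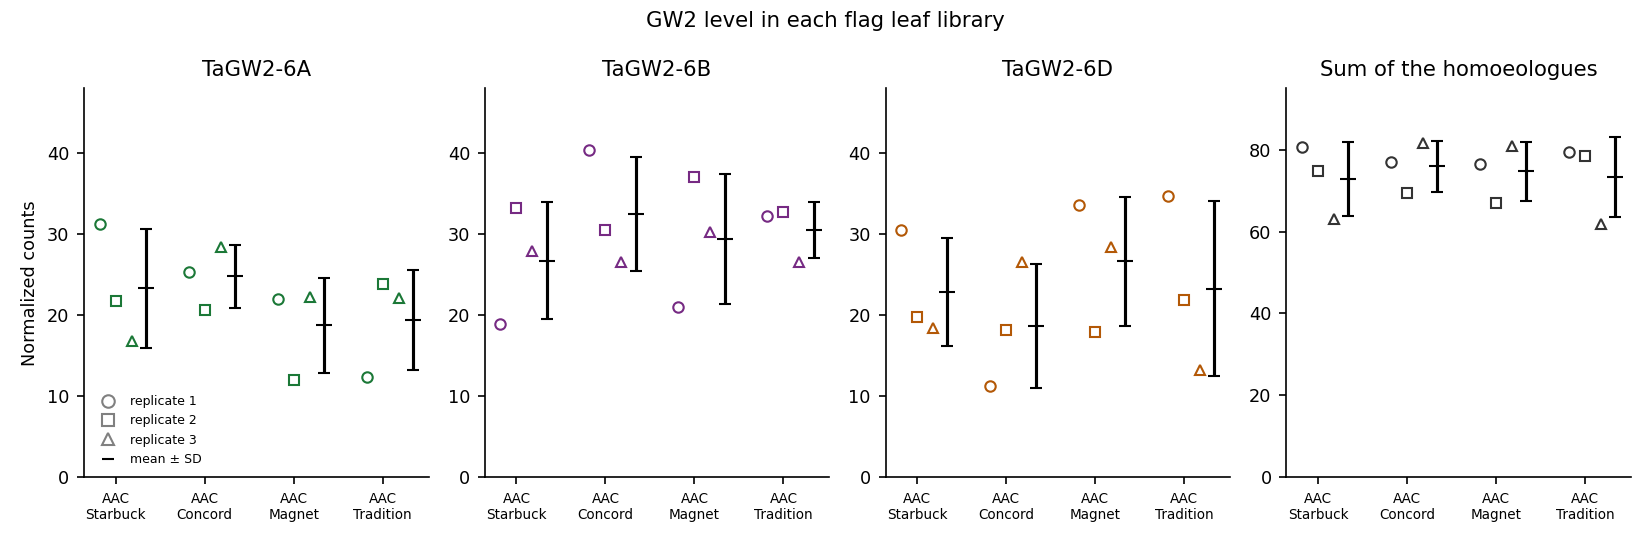
Normalized counts of the 3 GW2 homoeologues and of their sum (vertical axes, from 0) in the 4 varieties (horizontal axes), with a symbol for each replicate and a black bar for the mean ± SD of 3 libraries. The ranges of the varieties overlap in every panel, and the sum stays between 61.9 and 81.6 normalized counts.

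Whether a GW2 gene differed between varieties was tested with limma in a fit of log2(normalized count + 1) for 44026 genes, with p-values adjusted over all of them. None of the 3 homoeologues differed across the varieties at an adjusted p under 0.05 in limma's F test, which called 22.1% of all genes tested. The adjusted p was 0.63 for 6A, 0.79 for 6B and 0.72 for 6D, and the unadjusted p was 0.51, 0.71 and 0.62, so that 0 of 3 were under 0.05 before adjustment too. With every partition of the libraries into 4 groups enumerated, the exact permutation test gave p = 0.58, 0.76 and 0.68. Among genes of like level, within a factor of 1.5 of the member's mean, the F test called 21.98% for 6A, 21.0% for 6B and 21.6% for 6D. The range of the variety means, on the log2 scale, was 0.42 for 6A, 0.29 for 6B and 0.52 for 6D, where genes of like level had medians of 0.71, 0.62 and 0.69. A smaller range than that of 6B was found in 11.95% of its 10407 genes of like level, and the corresponding share was 21.3% for 6A and 33.2% for 6D.

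No pair of varieties passed the test in any GW2 gene. Of the 18 comparisons, 3 homoeologues in 6 pairs, 0 were called at an adjusted p under 0.05 with a log2 fold change above 1 or below -1, and 0 had an unadjusted p under 0.05 in limma. Under the same rule the whole table gave 9.00% of genes for AAC Starbuck against AAC Concord, 6.11% for AAC Starbuck against AAC Magnet and 4.97% for AAC Starbuck against AAC Tradition. It gave 9.26% for AAC Concord against AAC Magnet, 7.05% for AAC Concord against AAC Tradition and 6.21% for AAC Magnet against AAC Tradition. With 3 members, a count of 0 is therefore close to that background. The 3 and 3 libraries of a pair overlapped in all 18 comparisons, where 31.5%, 26.8%, 27.2%, 32.9%, 29.0% and 29.0% of genes in the same order of pairs did not overlap.

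For each homoeologue the largest difference involved AAC Concord, with AAC Magnet for 6D and 6A and with AAC Starbuck for 6B. Each of these moved with single libraries. The 6A difference of AAC Concord minus AAC Tradition, 0.37, was also larger than that of 6B. The 6D homoeologue had a log2 difference of -0.52 in AAC Concord against AAC Magnet (standard error 0.39, 95% interval -1.38 to 0.34, adjusted p = 0.43 from limma). Taken as AAC Magnet minus AAC Concord, this difference was 0.22 without AAC Concord replicate 1, 0.34 without AAC Magnet replicate 1 and 0.81 without AAC Concord replicate 3, and without AAC Concord replicate 1 it was below the 0.24 of AAC Magnet minus AAC Tradition. The 6A homoeologue went the other way in the same pair, with 0.42 in AAC Concord against AAC Magnet (standard error 0.32, interval -0.27 to 1.12, adjusted p = 0.43), and 0.15 without AAC Magnet replicate 2. For 6B the largest was -0.29, between AAC Starbuck and AAC Concord, first minus second (standard error 0.26, interval -0.86 to 0.28, adjusted p = 0.52). Taken as AAC Concord minus AAC Starbuck, it was 0.069 without AAC Starbuck replicate 1, 0.13 without AAC Concord replicate 1 and 0.46 without AAC Starbuck replicate 2. Without AAC Starbuck replicate 1 it was below the 0.16 of 6B in AAC Concord minus AAC Magnet. Intervals stayed between -1 and 1 for 6 of 6 pairs in 6B, 3 of 6 in 6A and 1 of 6 in 6D. The farthest bound, for 6D, is a 2.61-fold difference, and for 6A and 6D some intervals reached past a 2-fold change.

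**Figure D2:**
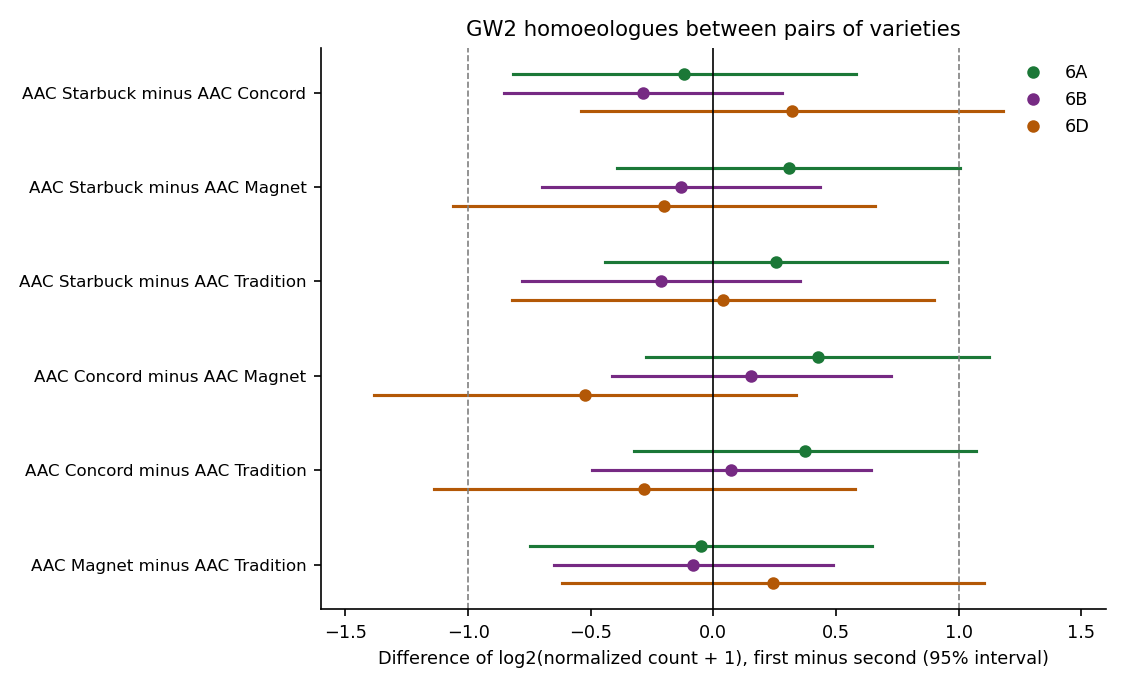
Difference of log2(normalized count + 1) between each pair of varieties (horizontal axis, first minus second) for the 3 GW2 homoeologues, with limma's 95% interval as a line and dashed lines at -1 and 1. Every interval holds 0, and those of 6B lie within the dashed lines.

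None of the pooled pairs of varieties passed the test either. The 6A homoeologue had a log2 difference of 0.34 in the Western against the Eastern varieties (standard error 0.22, adjusted p = 0.40 from limma), and 6D had -0.24 (standard error 0.28, adjusted p = 0.66). In the later against the earlier released varieties, 6D had 0.28 (standard error 0.28, adjusted p = 0.56). With any 1 library left out, the first of these differences was 0.20 (without AAC Tradition replicate 1) to 0.44 (without AAC Starbuck replicate 3). That of 6D between ecozones was -0.41 (without AAC Tradition replicate 3) to -0.078 (without AAC Tradition replicate 1), and that between releases 0.11 and 0.44 without the same 2 libraries. All 9 pooled differences, including those of AAC Starbuck and AAC Tradition together against the other varieties, had intervals between -0.85 and 0.89, and 0 of 9 were called. These contrasts called 4.97%, 5.83% and 5.64% of all genes tested, in the order Western against Eastern, later against earlier, and the last pairing. Each side holds 2 varieties, so ecozone and release cannot be told apart from the varieties themselves.

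The 6B homoeologue held the largest share of the GW2 counts over all libraries, but its difference to the others did not pass the test across libraries after adjustment. By reads, the 12 libraries held 274 of 6A, 368 of 6B and 284 of 6D, 926 in all. This gives 29.6% for 6A (95% Wilson interval 26.7 to 32.6), 39.7% for 6B (36.6 to 42.9) and 30.7% for 6D (27.8 to 33.7), intervals that cover counting error only. The 6B homoeologue was the highest in 8 of 12 libraries, and 6A and 6D in 2 libraries each. Within a library, 6B exceeded 6A by 0.47 on the log2 scale (SD 0.60, n = 12, higher in 9 libraries), with an exact sign-flip permutation p of 0.021 that was 0.064 after adjustment over the 3 pairs of homoeologues. It exceeded 6D by 0.41 (SD 0.71, higher in 8 libraries, exact permutation p = 0.071, adjusted p = 0.11). The 6A and 6D homoeologues differed by -0.05 (SD 0.64, n = 12, exact permutation p = 0.77). The 6B homoeologue stayed the higher one with any 1 library left out, by 0.37 to 0.57 over 6A and by 0.29 to 0.51 over 6D, but whether it passed the test depended on single libraries in which 6B was low. Without AAC Starbuck replicate 1 the adjusted p was 0.012 against 6A and 0.047 against 6D, and without AAC Magnet replicate 1 it was 0.047 against each (exact permutation tests).

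By variety, the mean share of 6B was highest in AAC Concord with 43.0% ± 9.95, then AAC Tradition with 41.8% ± 1.11 and AAC Magnet with 40.0% ± 14.2, and lowest in AAC Starbuck with 37.4% ± 12.1 (SD, n = 3). The share of 6A was 32.5% ± 2.54, 27.2% ± 10.4, 24.7% ± 5.96 and 31.5% ± 6.42 in the same order of varieties, and that of 6D was 24.5% ± 9.11, 31.0% ± 11.5, 35.3% ± 8.53 and 31.1% ± 5.94. No share passed the test across the varieties. The exact permutation test gave p = 0.51 for 6A, 0.92 for 6B and 0.55 for 6D, and adjusted p of 0.83, 0.92 and 0.83 over the 3 shares. The 6A share of AAC Concord, 29.8% to 34.8%, lay above that of AAC Magnet, 17.9% to 28.8%, without overlap, which 3 libraries against 3 cannot take below an exact permutation p of 0.10. It was the only one of the 18 share comparisons without overlap. For gene levels, 32.9% of genes did not overlap in that pair and 26.8% to 32.9% over the 6 pairs. No such background was computed for shares, and the 3 shares of a library are parts of the same sum, so they are not independent.

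**Figure D3:**
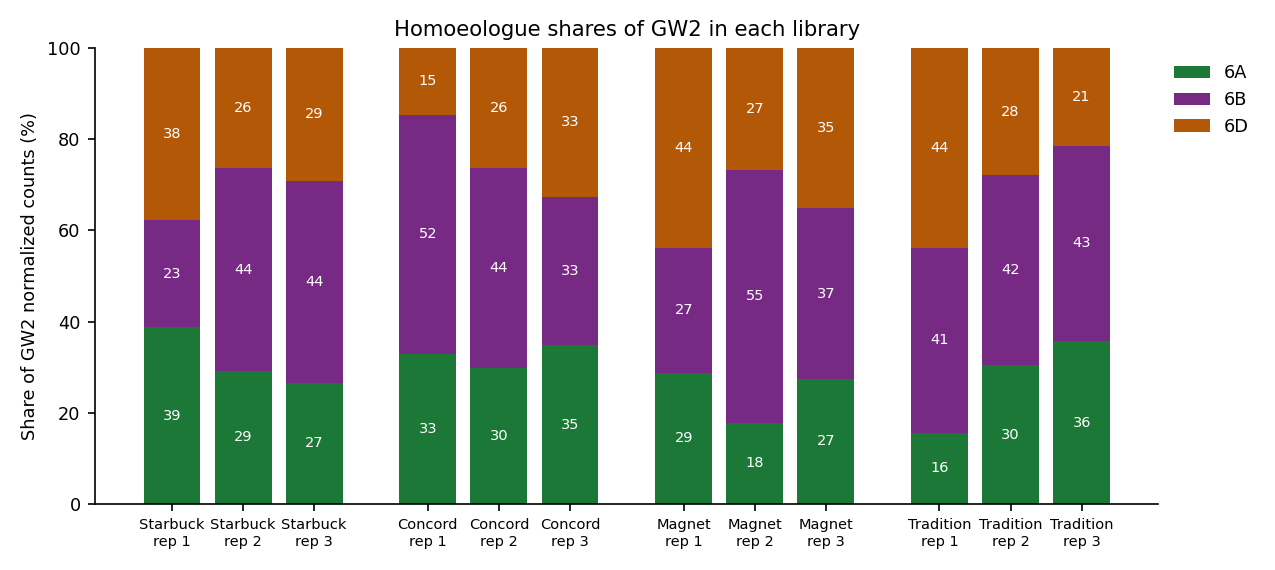
Share of each homoeologue in the GW2 normalized counts of a library (vertical axis, percent, stacked to 100) for the 3 replicates of each variety. The 6B share runs from 23.5% in AAC Starbuck replicate 1 to 55.4% in AAC Magnet replicate 2, a wider span than that between the variety means.

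Single libraries held 56 to 98 GW2 reads, which sets how closely a share can be read. The 95% Wilson interval of a share in a library was 15.3 to 25.2 percentage points wide. In AAC Magnet replicate 2, 31 of 56 reads came from 6B, a share of 55.4% (interval 42.4 to 67.6), and in AAC Starbuck replicate 1 it was 23 of 98, or 23.5% (16.2 to 32.8). These 2 intervals do not overlap. The interval of a library held the share over all libraries in 10 of 12 libraries for 6A, 8 of 12 for 6B and 9 of 12 for 6D. The salmon-based counting of the authors divides reads that fit several homoeologues between them, so single values of near-identical copies are less certain than their sum. How far this moved the shares was not tested.

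The spread between replicates was set beside counting error, without a test. Within varieties, the standard deviation was 5.97 normalized counts for 6A, where counting alone would give 4.57. It was 6.69 against 5.41 for 6B and 8.41 against 4.75 for 6D. For the sum it was 8.17 against 8.53, a ratio of 0.958. Had the 3 homoeologues varied independently, their variances would add to a standard deviation of 12.3 for the sum. On the log2 scale, the residual standard deviation of 6D was 0.53, larger than that of 80.4% of genes of like level, and those of 6A (0.42) and 6B (0.33) were near the medians of 0.39 and 0.34.

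None of the correlations between GW2 homoeologues passed the test over 12 libraries, and those with 6B were negative. With variety means removed, Pearson's r was -0.57 between 6A and 6B and -0.55 between 6B and 6D (Spearman's rho -0.52 and -0.55), and it was 0.17 between 6A and 6D (rho 0.14). The exact permutation test over all orders within varieties gave p = 0.11, 0.086 and 0.66 for the 3 values of r, or 0.17, 0.17 and 0.66 adjusted over the 3 pairs. For rho p was 0.15, 0.079 and 0.73, adjusted 0.22, 0.22 and 0.73. Without removal of the means, r was -0.45 between 6A and 6B, -0.56 between 6B and 6D and -0.01 between 6A and 6D, with permutation p of 0.14, 0.059 and 0.97 and adjusted p of 0.21, 0.18 and 0.97. The corresponding rho was -0.34, -0.46 and 0.10 (permutation p = 0.27, 0.13 and 0.77, adjusted p = 0.41, 0.40 and 0.77). Leaving out the 2 libraries farthest from the median of the first gene brought r to -0.28, -0.30 and 0.28, so the negative values rest in part on those libraries. Without AAC Tradition replicate 3 the within-variety r of 6B and 6D was -0.84 (exact permutation test, adjusted p = 0.021). With any other library left out, r of this pair was -0.72 to -0.43, and the same test gave adjusted p of 0.066 to 0.52. No sequencing batch is named within which these relations could be recomputed.

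**Figure D4:**
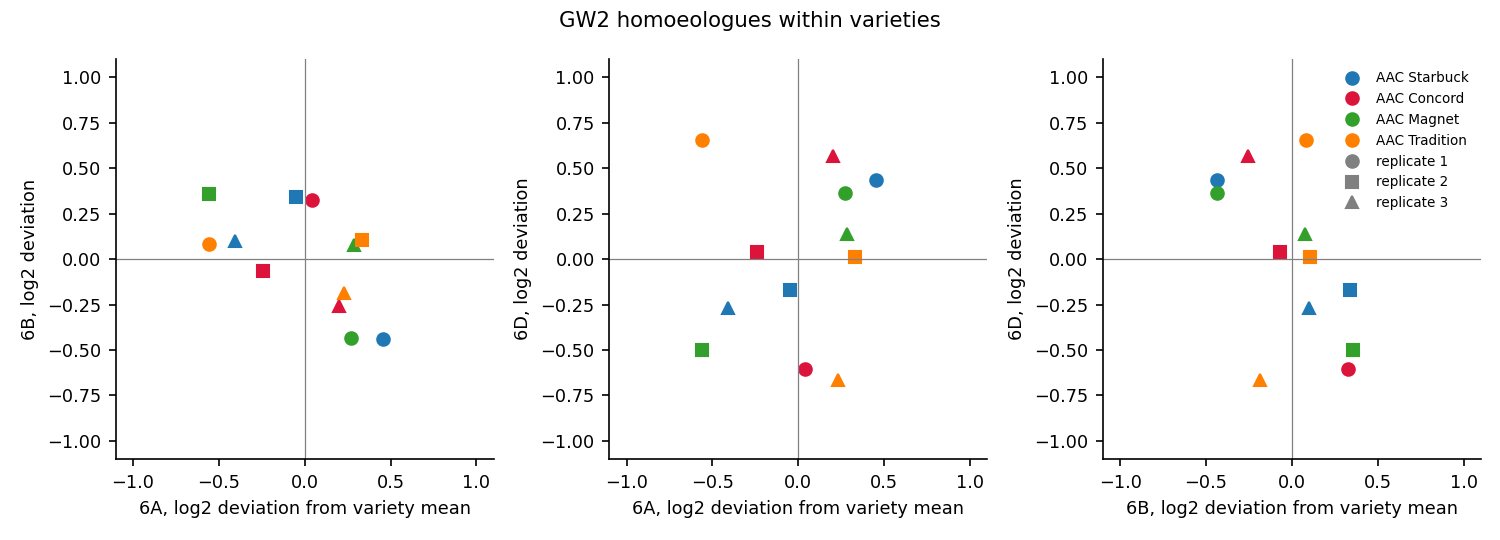
Deviation of each library from its variety mean, in log2(normalized count + 1), for each pair of GW2 homoeologues, with colour for the variety and symbol for the replicate. Points of 6B against 6A and of 6B against 6D tend to run from upper left to lower right, with r of -0.57 and -0.55. Those of 6D against 6A show no direction, with r of 0.17. Over all libraries, none of these values of r passed the exact permutation test within varieties.

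Genes beside GW2 were compared in the same way, since wheat identifiers are numbered along a chromosome. The 10 tested genes on each side of each homoeologue gave 60 neighbours, of which 8 (13.3%) were called by limma's F test, against 22.1% of all genes tested. By homoeologue this was 3 of 20 around 6A, 1 of 20 around 6B and 4 of 20 around 6D. A pair of varieties was called in 3 of the 60 (5%), against 19.3% of all genes. The median range of variety means was 0.46 on the log2 scale for the neighbours and 0.60 for all genes. With 25 genes on each side, 21 of 150 (14%) were called by the F test.

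The 3 neighbours called in a pair of varieties have no gene name in the files. TraesCS6B02G217200, the outermost of those after 6B, had 35.9, 90.1 and 63.7 normalized counts in AAC Starbuck and 2.76, 10.8 and 4.48 in AAC Concord, a log2 difference of 3.27 (standard error 0.46, adjusted p = 0.00078 from limma). Its ranges in these varieties were far apart, whereas 6B itself had overlapping ranges. TraesCS6A02G190900 was higher in AAC Starbuck than in AAC Tradition, with 56.2 ± 8.09 against 22.7 ± 11.1 normalized counts (SD, n = 3, log2 difference 1.36, standard error 0.32, adjusted p = 0.030 from limma). TraesCS6D02G174700 was higher in AAC Magnet than in AAC Concord, with 123 ± 17.9 against 57.9 ± 13.0 (SD, n = 3, log2 difference 1.08, standard error 0.23, adjusted p = 0.011 from limma).

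**Figure D5:**
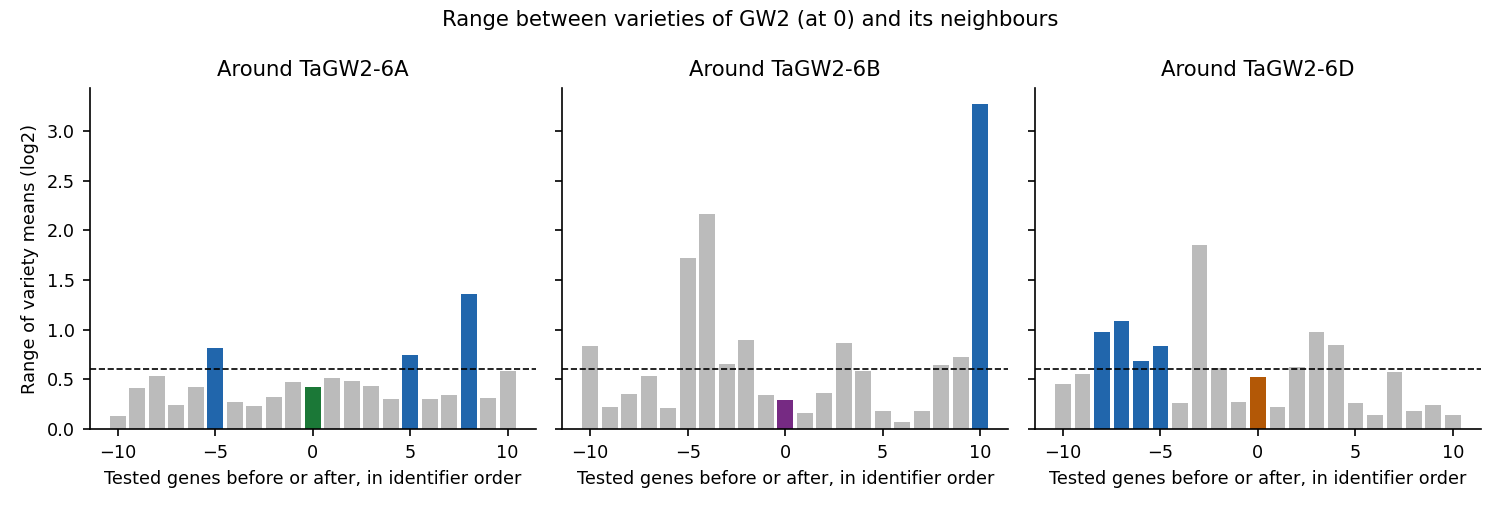
Range of the 4 variety means in log2(normalized count + 1) (vertical axis) for each GW2 homoeologue, at position 0, and the 10 tested genes before and after it in identifier order (horizontal axis), with blue for neighbours called by limma's F test, grey for the others and a dashed line at the median of all genes, 0.60. The 3 GW2 bars, 0.42, 0.29 and 0.52, lie below the line.

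The balance of GW2 was set beside that of 2 other sets of homoeologues, TaCER1-1 of alkane synthesis and TaFAR4 of primary alcohol synthesis, both wax genes of the leaf surface. The largest homoeologue held 43.6% ± 5.73 of the GW2 counts of a library, 60.5% ± 6.80 of the TaCER1-1 counts and 46.1% ± 4.94 of the TaFAR4 counts (SD, n = 12). This measure takes whichever homoeologue is largest in each library, so for GW2 it lies above the mean 6B share of 40.6%. The sets were not matched for their number of reads. TaCER1-1 was more one-sided than GW2, by 16.9 percentage points and in 11 of 12 libraries (exact sign-flip permutation test, p = 0.0015, adjusted p = 0.0029 over 2 comparisons). The difference to TaFAR4, 2.50 points, was within its spread (SD 8.57, 7 of 12 libraries, exact permutation p = 0.34). The D homoeologue held 30.5% ± 8.66 of GW2, 0.340% ± 0.268 of TaCER1-1 and 45.8% ± 5.74 of TaFAR4 (SD, n = 12), and both differences to GW2 passed the exact sign-flip permutation test (adjusted p = 0.00098 and 0.0034). Nearly all TaCER1-1 counts came from 2 homoeologues, so its largest share, at least 52.4%, could hardly fall to that of GW2. The 2 differences of TaCER1-1 to GW2 are therefore not separate results. The 12 libraries come from 4 varieties, so they are not 12 independent genotypes.

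Patterns most like those of the GW2 genes were found among 20929 tested genes with a mean of at least 50 normalized counts, by Pearson's r over the 12 libraries. For 6A they were TraesCS6A02G407600 (r = 0.88) and TraesCS6A02G163700 (r = 0.87), for 6B TraesCS2B02G361300 (r = 0.92) and TraesCS6B02G433000 (r = 0.86), and for 6D TraesCS2D02G321500 (r = 0.89) and TraesCS5A02G302800 (r = 0.88). With variety means removed r was 0.84 to 0.94 for these 6 genes, and limma's F test gave them adjusted p of 0.55 to 0.92. The highest of so many values of r over 12 libraries is a description. No gene was shared between the homoeologues' lists, but lists of 2 genes each are too short for that to be read as a difference.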

How the data were processed

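The deposited signal values are normalized counts per gene of 12 flag leaf libraries. The authors used Trimmomatic for trimming, Salmon for counting on the IWGSC wheat reference, and DESeq2, and how the counts were scaled is not given in the sources used here. Of the low values of a library, 91.0% to 93.3% were whole reads (tolerance 0.1 of a step), under the 95% needed, so no count model was run.

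Genes with at least 10 normalized counts in at least 3 libraries were tested with limma 3.58.1 (R 4.3.3) on log2(value + 1), in a fit of all libraries by variety (8 residual and 2.80 prior degrees of freedom), with Benjamini-Hochberg adjustment over 44026 genes. Python 3.11.15, numpy 2.4.6 and scipy 1.17.1 gave exact tests, correlations (100000 permutations where not exact) and Wilson intervals. The code was tested on simulated data. Alternatives were other pseudocounts (0.5 and 5), filters, scalings, a trend, the replicate number as a block and each library left out.

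Genes named are the members, for each the 2 most similar genes with a mean of at least 50, called neighbours (at most 3) and the wax homoeologues listed by the study. The members and lists were chosen with earlier results of these data known. Genes of the GW2 pathway were left out because 0 identifiers match the RefSeq gene table of 155467 genes.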

Additional observations from a re-analysis of the deposited data

How the results depend on the processing

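No GW2 homoeologue was called across varieties, in a pair or in pooled varieties (0 calls each) under other pseudocounts, filters or scalings, limma's trend, separate fits for each pair, without the fold limit, or with any 1 library left out. Over these settings limma's adjusted p was 0.47 to 0.95 for the F test and at least 0.25 for pairs. With a mean of at least 50 as the filter, 6079 genes were called by the F test in place of 9745. The GW2 genes do not reach that mean (21.6 for 6A, 29.8 for 6B and 22.9 for 6D) and were kept in this fit by exception. With the replicate block the calls stayed at 0 and the F test called 8962 genes. Residuals of libraries of the same number correlated at -0.14 to 0.21 (median 0.029) and of other numbers at -0.23 to 0.18 (median -0.0067). Of 12 libraries, 7 correlated best with one of their own number, which 3 of the 9 libraries of other varieties carry, and since not every pair was over 0.1 the numbers were not taken as a pairing. The summed level of AAC Concord against AAC Starbuck was -0.046 with the same total, and -0.035 to 0.141 with each library left out. Over libraries left out, the 6B share of AAC Concord minus AAC Starbuck was -1.35 to 10.8 points. The log2 difference of 6B to 6A was 0.37 to 0.57, of 6B to 6D 0.29 to 0.51 and of 6A to 6D -0.16 to 0.069. Within-variety r was -0.092 to 0.69 for 6A and 6D and -0.84 to -0.43 for 6B and 6D. By the share of the D homoeologue, TaCER1-1 lay -30.1 points from GW2 and TaFAR4 15.3. The cause of these shifts was not tested. EdgeR and DESeq2 alternatives were not run, since the share of low values that were whole reads missed the 95% needed. Each homoeologue had 10 to 43 reads in a library, and limma's intervals for 6A and 6D reached past a 2-fold difference in some pairs.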
